A study of Arabidopsis thaliana with 16 samples.

Results

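GH3.1 (AT2G14960), GH3.3 (AT2G23170) and WES1 (AT4G27260, also called GH3.5) are 3 Arabidopsis genes of the GH3 family that encode auxin-conjugating enzymes. They were taken as the probe sets to which the array annotation gives these names, 1 for each gene, which makes 3 of the 22746 probe sets tested. The RNA came from roots of 5-day-old seedlings grown on MS agar under continuous light. Every seedling carried the puchi-1 mutation and the transgene gPUCHI:GR, in which PUCHI, a transcription factor of the AP2/ERF family that acts in young lateral roots, is fused to the glucocorticoid receptor (GR) and expressed from its own regulatory region. Dexamethasone (DEX) lets such a fusion protein enter the nucleus. Treatments lasted 4 h with 2 µM DEX, 1 µM of the synthetic auxin naphthaleneacetic acid (NAA) and 10 µM of the translation inhibitor cycloheximide (CHX), in all 8 combinations, and the mock contained 0.1% DMSO. Each group had 2 arrays from independent mRNA samples. Only this line was measured, so neither a wild type nor a line without the fusion is among the 8 groups, and an effect of DEX itself cannot be told apart from one of the fusion protein.

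GH3 enzymes of this type join the auxin indole-3-acetic acid to amino acids, which lowers the pool of active hormone. Their transcription is itself raised by auxin, so that they form a feedback loop on hormone level. In the auxin pathway the hormone brings Aux/IAA repressor proteins to a TIR1/AFB receptor complex and leads to their degradation, and ARF transcription factors are then free to act at genes such as GH3, Aux/IAA and LBD. Aux/IAA repressors are short-lived, so a block of protein synthesis also bears on their amount. GH3.3 and GH3.5 are known in Arabidopsis for a role in adventitious rooting, and GH3.5 also for acting on salicylic acid.

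Each value is an intensity on a linear scale, and all arrays had been brought to a common level. The median of log2(intensity + 16) was 7.58 to 7.68 per array, and Pearson's r between the replicates of a group was 0.983 to 0.989 across probe sets, which are not independent. PUCHI transcript was at an intensity of 208 ± 17.8 (SD, n = 2) in the mock and at 110 ± 9.33 (SD, n = 2) after DEX, a difference that did not pass (limma adjusted p 0.0641). Without and with DEX it was at 1770 and 1836 under NAA, 420 and 396 under CHX, and 434 and 385 under both. Transcripts of the fusion and of the mutant gene cannot be told apart by it. For GAPDH, where the ratio of 3' to 5' signal reflects how intact the RNA is, this ratio was 0.877 to 1.53 on the 8 arrays without CHX and 0.763 to 1.57 on the 8 with it. Of 20 root identity markers 3 were measured by name, with intensities over all 16 arrays of 486 to 1079 for the root hair expansin EXPA7, 423 to 1653 for EXPA18 and 261 to 709 for the receptor kinase GSO1. Of 20 green tissue markers 2 were measured, Rubisco activase (RCA) at 309 to 719 and SBPASE at 10.3 to 116. All 3 root markers fell with NAA alone (-0.72 to -0.58 on the log2 scale), where 12.8% of all probe sets fell. With CHX alone 1 of the 3 fell and 2 did not pass (-1.15 to 0.23). Both green tissue markers fell with CHX alone (-1.26 and -0.69), where 30.4% of all probe sets fell. With NAA alone 1 of these 2 fell. The part of the markers in the results below was not tested. These are whole roots, in which fewer cells of a type and less RNA per cell cannot be told apart.

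Without any treatment GH3.1 was hardly above the low end of the arrays. Its intensity was 34.2 and 34.4 in the mock and 50.0 and 36.6 after DEX alone, where the lower quartile of all probe sets was 25.3 to 40.0 depending on the array. In the NAA group it was 2545 and 3043, and in the NAA+DEX group 3271 and 2874. The 4 arrays with NAA and no CHX lay far above the 4 arrays with neither compound, and with NAA the arrays with DEX overlapped those without. Without NAA and CHX, both DEX arrays lay above both mock arrays. In the CHX group GH3.1 stood at 1415 and 1384, and in the DEX+CHX group at 1721 and 1709. With NAA and CHX together its intensity was 2179 and 2064, and with DEX added 2397 and 2191. All arrays with both compounds thus lay above all arrays with CHX only and below all 4 arrays with NAA only.

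GH3.3 covered the widest range of the 3. Its intensity was 40.7 and 57.6 in the mock and 59.8 and 58.5 after DEX. With NAA it reached 21503 and 23063, and with NAA+DEX 24707 and 23031. The highest array without NAA was at 4212. CHX without NAA gave 3923 and 4212, and DEX+CHX gave 3992 and 4205, a level that the 4 arrays shared closely. Under NAA and CHX the intensity was 10276 and 9493, and with DEX added it was 10771 and 8340.3. The NAA+DEX+CHX pair enclosed both NAA+CHX arrays.

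WES1 differed in that it had a clear signal in untreated roots. The mock arrays gave intensities of 598 and 587, and the DEX arrays 617 and 517. After NAA they were 12323 and 13309.7, and after NAA+DEX 15319 and 14162. These 4 arrays lay above the other 12. CHX gave 1174 and 959.5, and DEX+CHX gave 1302 and 1054, so the pairs overlapped with each other and stood above mock and DEX. With NAA and CHX the values were 2187 and 2130.4, and with DEX added 2133 and 2428.

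**Figure D1:**
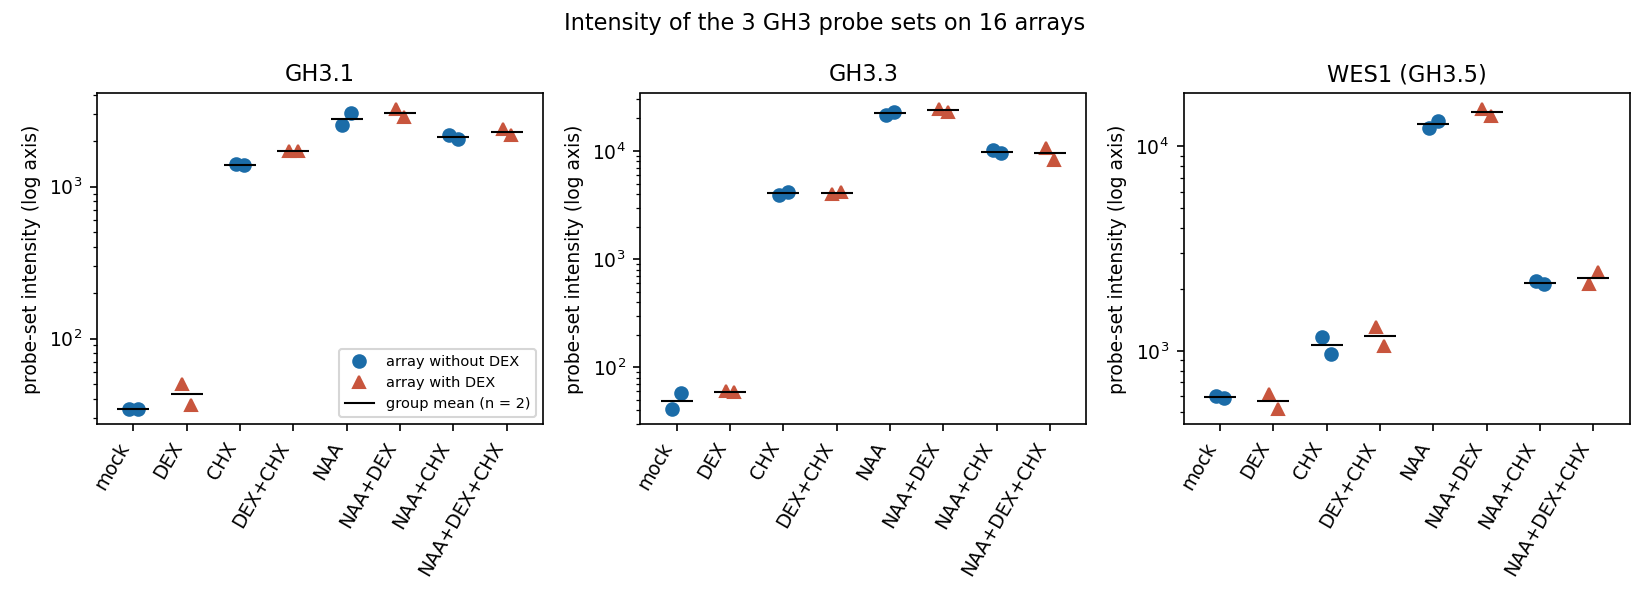
Intensity (log axis) of GH3.1, GH3.3 and WES1 on each of the 16 arrays, with circles for arrays without DEX, triangles for arrays with DEX and a line for each group's mean (n = 2). The CHX group lies at 50.1% of the NAA group for GH3.1, at 18.3% for GH3.3 and at 8.32% for WES1, whose CHX arrays (1174 and 959.5) lie above its mock arrays (598 and 587).

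The order of the group means was nearly the same for the 3 genes. For GH3.1 it ran from mock, DEX, CHX, DEX+CHX, NAA+CHX, NAA+DEX+CHX and NAA to NAA+DEX. For GH3.3 NAA+DEX+CHX and NAA+CHX changed places, and for WES1 DEX stood below mock. Neighbours were compared by the 95% interval of their difference in the fit, on the log2(intensity + 16) scale and without adjustment over the pairs. The order, and with it the direction of each step, came from these same values, so an interval above 0 is no separate test. For GH3.3 and WES1 the groups with and without DEX were neighbours that did not differ beyond their spread in all 4 backgrounds, and every step between backgrounds excluded 0. For GH3.1 mock and DEX (0.23, interval -0.01 to 0.47), NAA+CHX and NAA+DEX+CHX (0.11, -0.13 to 0.36) and NAA and NAA+DEX (0.14, -0.10 to 0.38) did not differ beyond their spread. The step from CHX to DEX+CHX was 0.29 (0.05 to 0.53), that from DEX+CHX to NAA+CHX 0.30 (0.06 to 0.55) and that from NAA+DEX+CHX to NAA 0.28 (0.03 to 0.52). The step from CHX to DEX+CHX is the DEX change of GH3.1 with CHX, which did not pass (limma adjusted p 0.642).

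NAA without CHX raised all 3 genes, where 13.6% of all probe sets rose without DEX and 13.5% with it. With n = 2 against 2, GH3.3 rose by 8.43 on the log2(intensity + 16) scale (SE 0.123, limma adjusted p 9.44e-17), a 345-fold change, which was rank 1 among the changes of all 22746 probe sets. GH3.1 rose by 5.7995 (SE 0.115, limma adjusted p 4.94e-15), at rank 7. WES1 rose by 4.398 (SE 0.119, limma adjusted p 1.52e-13), at rank 23. In the arrays with DEX the rises were 8.31 for GH3.3, 5.71 for GH3.1 and 4.66 for WES1 (limma adjusted p 1.18e-16, 6.03e-15 and 6.58e-14), at ranks 1, 6 and 20. The median change over all probe sets was 0.01 without DEX and -0.01 with it. Because GH3.1 and GH3.3 started near the low end, their fold depends on the constant added before the log. With 1 or 64 in place of 16 the NAA change was 8.82 or 7.63 for GH3.3 and 6.30 or 4.86 for GH3.1, against 4.43 or 4.29 for WES1.

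CHX alone also raised all 3, by very unequal amounts, where 25.8% of all probe sets rose. GH3.3 rose by 5.98 (SE 0.123, 95% interval 5.72 to 6.24, limma adjusted p 2.43e-16, n = 2 against 2) and GH3.1 by 4.82 (SE 0.115, interval 4.57 to 5.06, limma adjusted p 1.32e-15). WES1 rose by 0.83 (SE 0.119, interval 0.57 to 1.08, limma adjusted p 1.26e-05). Among the changes of all probe sets with CHX these were at ranks 162, 328 and 4449. With a constant of 1 or 64 they were 6.36 or 5.19 for GH3.3, 5.31 or 3.896 for GH3.1 and 0.84 or 0.78 for WES1. In the arrays with DEX the CHX changes were 5.77 for GH3.3, 4.88 for GH3.1 and 1.03 for WES1 (limma adjusted p 3.41e-16, 1.17e-15 and 9.25e-07), where 25.1% of all probe sets rose. In intensity, the CHX group stood at 50.1% of the NAA group for GH3.1, at 18.3% for GH3.3 and at 8.32% for WES1. The CHX and NAA comparisons share the mock arrays. The difference between the genes in their CHX response was not tested.

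In roots with CHX, where NAA raised 0.339% of all probe sets, it raised the 3 genes by less on the log2 scale than in roots without CHX. With n = 2 against 2, GH3.3 rose by 1.28 (SE 0.123, limma adjusted p 5.53e-05), WES1 by 1.01 (SE 0.119, limma adjusted p 0.000347) and GH3.1 by 0.59 (SE 0.115, limma adjusted p 0.0144). These were at ranks 31, 103 and 727 of all probe sets. The call of GH3.1 ended without CHX replicate 1 (0.61, limma adjusted p 0.0761), CHX replicate 2 (0.58, 0.0959), NAA+CHX replicate 1 (0.56, 0.106) or NAA+CHX replicate 2 (0.63, 0.0754), with a range of 0.00615 to 0.106 over 21 alternatives. With DEX and CHX present, where 0.290% of all probe sets rose, the NAA changes were 1.21 for GH3.3 and 0.95 for WES1 (limma adjusted p 9.62e-05 and 0.000732), which passed. GH3.1 had a change of 0.42 (interval 0.17 to 0.66, limma adjusted p 0.101), which did not pass.

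The opposite comparison, CHX in roots with NAA, gave falls in all 3, where 31.6% of all probe sets fell in each DEX state. WES1 fell by 2.56 on the log2 scale (SE 0.119, limma adjusted p 7.19e-12, n = 2 against 2), GH3.3 fell by 1.17 (SE 0.123, limma adjusted p 2.84e-07) and GH3.1 fell by 0.39 (SE 0.115, limma adjusted p 0.00787). With DEX present the changes were -2.69, -1.33 and -0.42 in the same order (limma adjusted p 3.72e-12, 5.62e-08 and 0.00487). The level with both compounds was 16.8% of the NAA level for WES1, 44.4% for GH3.3 and 75.9% for GH3.1 in intensity. For GH3.1 the call without DEX ended when NAA replicate 2 (-0.26, limma adjusted p 0.125) or NAA+CHX replicate 2 (-0.35, 0.0539) was left out, and that with DEX ended without NAA+DEX replicate 1 (-0.32, 0.0692). Each gene thus had its highest level with NAA alone or NAA+DEX, and CHX moved it up in roots without NAA and down in roots with NAA.

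**Figure D2:**
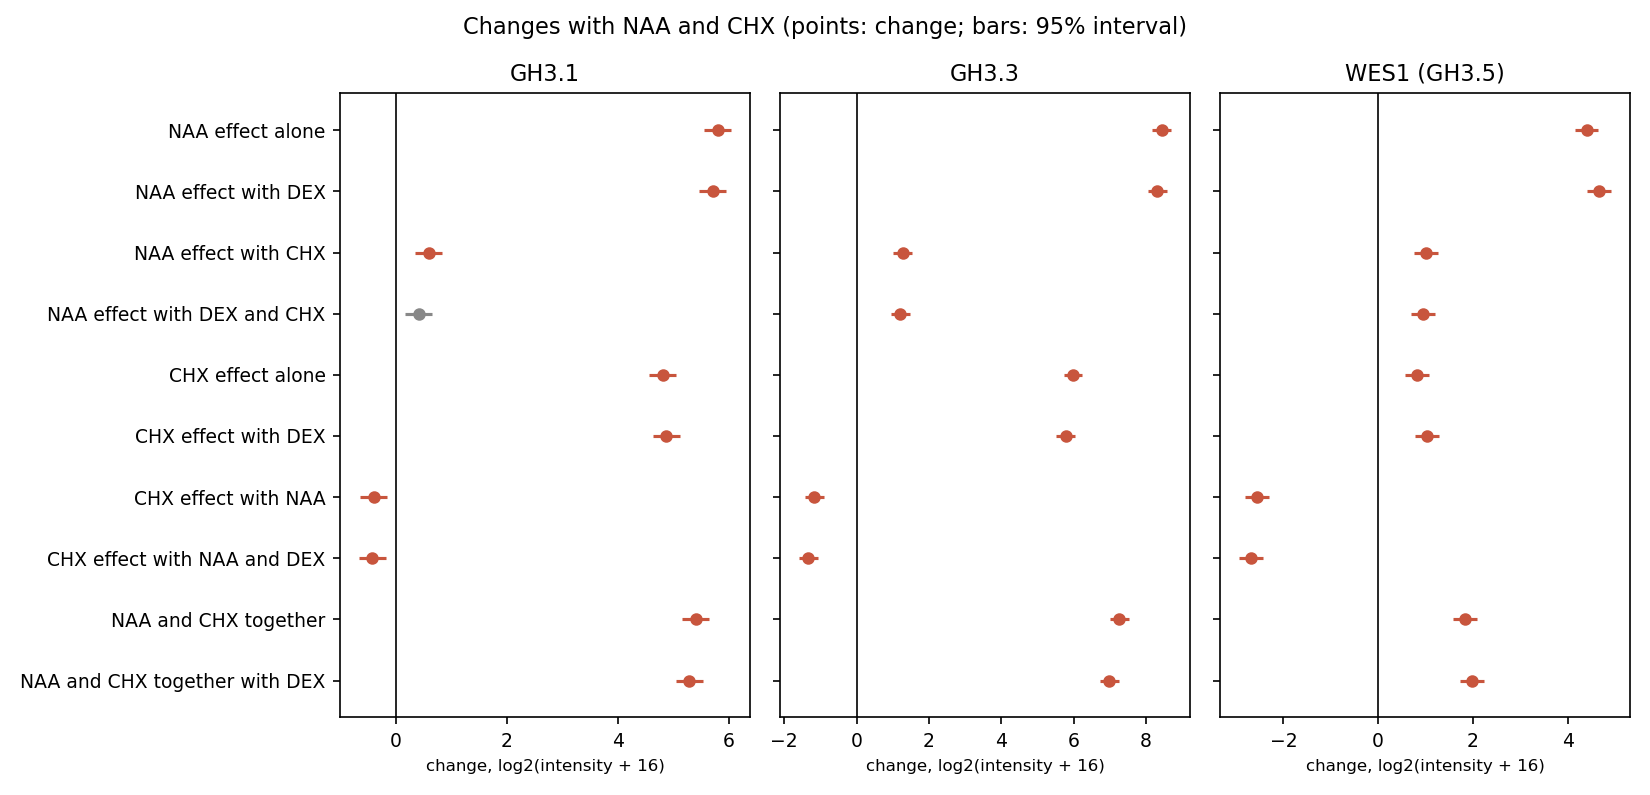
Changes of GH3.1, GH3.3 and WES1 on the log2(intensity + 16) scale for 10 comparisons, as points with 95% intervals, red where the adjusted p was under 0.05 and grey where it was not. Each panel has its own horizontal axis. The NAA change of GH3.3 was 8.43 without CHX and 1.28 with it, and CHX moved every gene to the right of 0 without NAA and to the left of 0 with NAA.

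That the NAA response differed with CHX was tested directly. The NAA by CHX interaction, averaged over both DEX states, was -7.13 for GH3.3 (SE 0.123, limma adjusted p 1.35e-15), -5.25 for GH3.1 (SE 0.115, limma adjusted p 2.55e-14) and -3.55 for WES1 (SE 0.119, limma adjusted p 3.21e-12), where 12.5% of all probe sets had a negative call. Without DEX it was -7.15, -5.21 and -3.39 in the same order (limma adjusted p 3.1e-13, 7.84e-12 and 1.27e-09), where 7.57% were negative calls. With DEX it was -7.10, -5.29 and -3.72 (limma adjusted p 3.45e-13, 4.01e-12 and 3.73e-10), where 7.55% were. GH3.3 had the most negative value of all 22746 probe sets in each DEX state, where GH3.1 was the fourth. A log scale measures this relative to the start, and CHX alone had already raised the start. On the intensity scale, NAA added 22234 units to GH3.3 without CHX and 5817 with it, 2760.2 against 722 to GH3.1, and 12224 against 1092 to WES1. The rise under both compounds was 9836 units for GH3.3, 2087 for GH3.1 and 1566 for WES1. The separate rises with CHX were 4018, 1365 and 475 units, so that for each gene the rise under both was larger than that with CHX and smaller than that with NAA.

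NAA and CHX together, set against the mock, raised GH3.3 by 7.26, GH3.1 by 5.41 and WES1 by 1.84 (limma adjusted p 2.99e-17, 3.17e-16 and 5.64e-10, n = 2 against 2), where 25.6% of all probe sets rose. With DEX in both groups the rises were 6.98, 5.29 and 1.98 (limma adjusted p 4.32e-17, 4.06e-16 and 2.12e-10), where 25.1% rose.

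None of the 3 genes passed the test for DEX in any background or on average, where few other probe sets did either. The share of all probe sets called was 0.0220% for DEX alone. It was 0.0352% in NAA-treated roots, 0.0132% in CHX-treated roots, 0.0308% under both compounds and 0.0791% for the mean over backgrounds. The DEX change of GH3.1 was 0.23 in otherwise untreated roots, 0.14 beside NAA, 0.29 beside CHX and 0.11 beside both. Their mean was 0.19 (SE 0.0575, 95% interval 0.07 to 0.31, limma adjusted p 0.429, unadjusted p 0.00411), higher with DEX in 4 of 4 backgrounds. GH3.3 had values of 0.22, 0.10, 0.01 and -0.06 in the same order, with a mean of 0.07 (interval -0.06 to 0.20, limma adjusted p 0.887). WES1 had values of -0.07, 0.20, 0.14 and 0.08, with a mean of 0.09 (interval -0.04 to 0.21, limma adjusted p 0.817). The intervals of the means leave room for changes of up to 0.31, 0.20 and 0.21 on the log2 scale. The signs of the DEX changes of WES1 alone, with CHX and with both, and of GH3.3 with CHX and with both, turned when 1 array was left out.

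Whether the NAA or CHX response of these genes differed with DEX was tested as interactions over all 16 arrays. The DEX by NAA values were -0.13 for GH3.1, -0.10 for GH3.3 and 0.10 for WES1 (limma adjusted p 0.931, 0.956 and 0.955). The DEX by CHX values were 0.02, -0.18 and 0.04 (limma adjusted p 0.984, 0.776 and 0.962). The value for all 3 factors was -0.09 for GH3.1, 0.05 for GH3.3 and -0.33 for WES1 (limma adjusted p 0.994, 0.997 and 0.985). The last of these, for WES1, had a 95% interval of -0.84 to 0.17. Among all probe sets 0 were called for DEX by NAA in limma, with 1334 at an unadjusted p under 0.05, while 0.00440% were called for DEX by CHX and 0.0132% for all 3 factors.

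**Figure D3:**
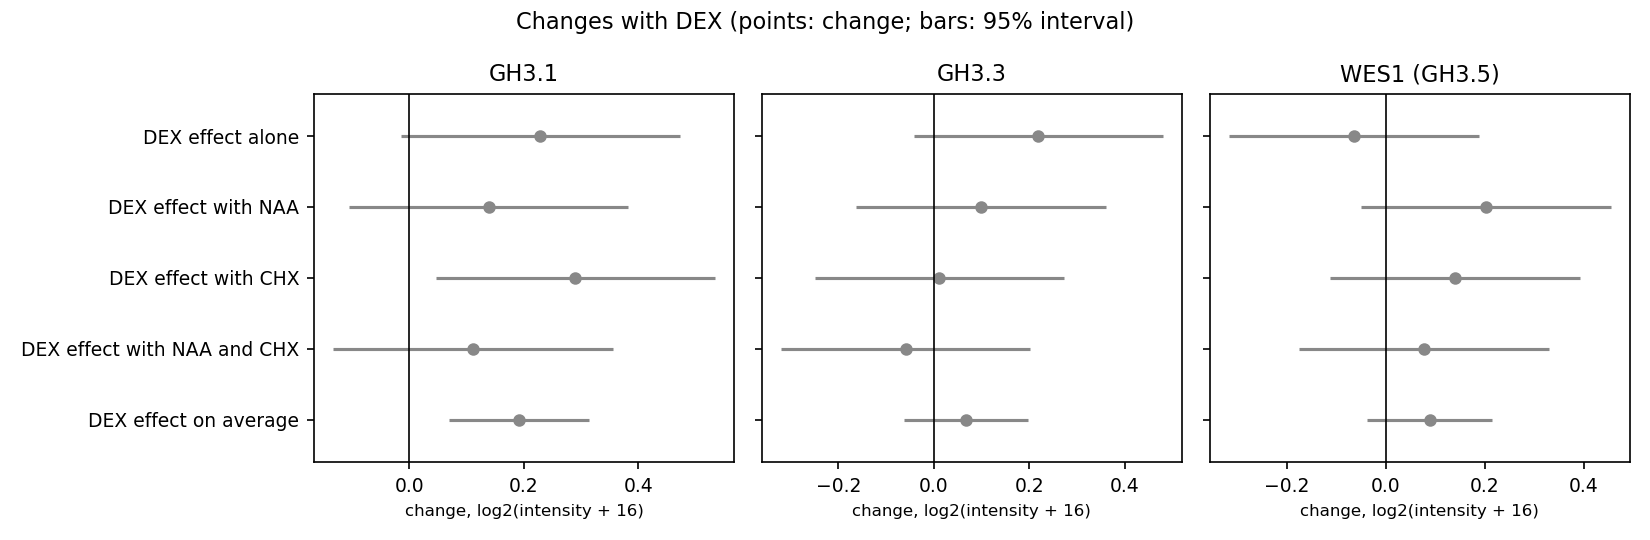
Changes of GH3.1, GH3.3 and WES1 with DEX in each of the 4 backgrounds and on average, on the log2(intensity + 16) scale, with 95% intervals and all in grey because no adjusted p was under 0.05. The averages were 0.19, 0.07 and 0.09, and each panel has its own horizontal axis.

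The GH3 family has 19 genes on the list used here, of which 11 were measured by name and 8 besides the 3 above. GH3.2, GH3.4, DFL1, DFL2, JAR1, PBS3, GH3.14 and GH3.15 had no probe set that the annotation gives to that gene alone. Whether they share the responses of GH3.1, GH3.3 and WES1 was thus not examined. With NAA alone 1 of these 8 rose, 1 fell and 6 did not pass (median -0.01), where 13.6% and 12.8% of all probe sets rose and fell. GH3.17, an enzyme that prefers glutamate as the partner of auxin, rose by 0.50 (SE 0.0838, limma adjusted p 0.000226), from an intensity of 1880.0 ± 73.1 to 2672 ± 25.7 (SD, n = 2). GH3.7 fell by 1.32 (SE 0.297, limma adjusted p 0.00301). With CHX alone 1 of the 8 rose and 4 fell, where 25.8% and 30.4% of all probe sets did (median -0.25 against -0.00 for all probe sets). GH3.9 rose by 1.94 (limma adjusted p 7.28e-05), from 6.11 ± 6.98 to 66.8 ± 1.35 (SD, n = 2). Its mock level lay below the lower quartile of all probe sets (25.3 to 40.0 per array). The size of this rise thus depends on the added constant. GH3.7, GH3.8, GH3.18 and GH3.17 fell, with changes of -1.94, -1.13, -1.11 and -0.96 (limma adjusted p 2.47e-05, 0.00336, 0.00201 and 2.78e-08). The CHX arrays of GH3.18, at 22.5 and 30.7, lay below the lower quartiles of these arrays (35.0 and 40.0). Those of GH3.8 were at 62.0 and 39.5. The sizes of these falls thus also depend on the added constant. The CHX arrays of GH3.7 were far apart, at 57.0 and 111.7. In the arrays with DEX, where 25.1% and 31.3% of all probe sets rose and fell with CHX, 1 of the 8 rose and 3 fell. There GH3.8 had a value of -0.11 that did not pass (limma adjusted p 0.796). NAA under CHX gave no call among the 8 (median -0.25), where 0.339% of all probe sets rose and 0.950% fell, and GH3.17 had a value of -0.35 (limma adjusted p 0.0513). With DEX also present 2 of the 8 fell, where 1.02% of all probe sets did, GH3.7 at -1.57 and GH3.17 at -0.41 (limma adjusted p 0.015 and 0.024). The DEX+CHX arrays of GH3.7 were far apart, at 205.4 and 95.7, and its NAA+DEX+CHX arrays were near the lower quartile, at 31.7 and 42.4. GH3.13, GH3.16 and GH3.19 were not called in any of these 3 comparisons and had an intensity of at most 65.9 on any array.

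GH3.17 also had an NAA by CHX interaction, at -0.90 (limma adjusted p 5.41e-07). This was the 1 call among the 8, a share no different from the 12.5% of all probe sets with a negative call. It came about differently from those of GH3.1, GH3.3 and WES1, since GH3.17 fell with CHX in roots without NAA and fell by 1.82 in roots with NAA (limma adjusted p 6.39e-12). Its level under NAA and CHX was 749 ± 71.6 (SD, n = 2), below that of the mock.

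**Figure D4:**
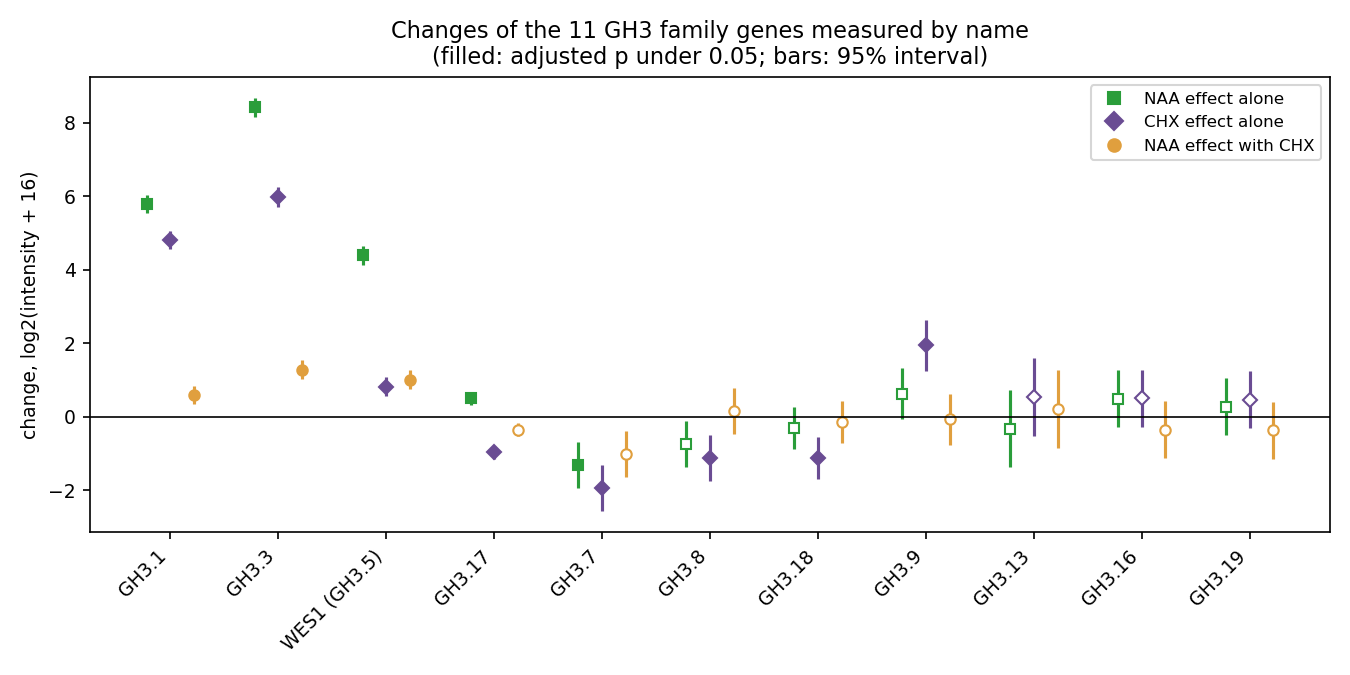
Changes of the 11 GH3 genes measured by name with NAA alone (squares), CHX alone (diamonds) and NAA in the presence of CHX (circles), on the log2(intensity + 16) scale with 95% intervals, filled where the adjusted p was under 0.05. GH3.1, GH3.3 and WES1 rose in all 3 comparisons, and the other 8 lie between -1.94 and 1.94.

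Other genes that set the level of auxin were few by name. The annotation lists no gene for 8730 of the 22746 probe sets, so genes counted here as not measured may still be on the array. Counts and medians of these lists cover the named genes only. Of 17 genes of auxin conjugate hydrolysis and inactivation 2 were measured, both glucosyltransferases. UGT84B1, which forms the glucose ester of indole-3-acetic acid, had intensities of 15.4 and 9.13 in the mock and 568 and 555 with CHX. It rose by 4.36 with CHX alone (SE 0.279, limma adjusted p 4.88e-10), but with NAA alone its value of -0.58 did not pass (limma adjusted p 0.152), nor did -0.00 with NAA under CHX. UGT74D1, which also glucosylates auxins, fell by 1.08 with NAA and fell by 1.44 with CHX (limma adjusted p 0.000242 and 2.55e-06). Of 27 auxin biosynthesis genes 4 were measured. YUC6, a flavin monooxygenase of the last step to auxin, fell by 2.19 with NAA (SE 0.427, limma adjusted p 0.000931), from 88.1 and 69.0 in the mock to 4.65 and 4.55. These NAA arrays of YUC6, and the mock arrays of UGT84B1, lay below the lower quartile of all probe sets (25.3 to 40.0 per array). The size of both changes thus depends on the added constant. YUC2, YUC4 and YUC11 had NAA values of -0.71, 0.04 and -0.97 that did not pass. None of the 4 was called with CHX alone, where 25.8% of all probe sets rose and 30.4% fell. Nor was any called with NAA under CHX, where only 0.339% of all probe sets rose and 0.950% fell. With CHX in the arrays with DEX 1 of the 4 fell, where 31.3% of all probe sets did, YUC6 at -1.54 (limma adjusted p 0.00524). The DEX+CHX arrays of YUC6 were far apart, at 44.7 and 9.35. Of 24 transport genes 1 was measured, the protein kinase WAG2, which fell by 0.50 with NAA and rose by 1.06 with CHX (limma adjusted p 0.00524 and 8.55e-07). None of 33 receptor and ARF genes was measured by name.

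Among the targets that share the pathway with GH3, 7 of 29 Aux/IAA genes were measured by name. With NAA 4 rose and 3 did not pass (median 1.49, against 0.01 for all probe sets), where 13.6% of all probe sets rose. With CHX alone 4 rose and 1 fell (median 0.89), where 25.8% rose and 30.4% fell. With NAA under CHX 3 rose (median 0.50), where 0.339% rose. Those 3 were IAA20 at 1.39, IAA29 at 0.94 and IAA30 at 0.87 (limma adjusted p 0.00324, 0.0104 and 0.002). IAA18 rose by 1.80 with NAA (limma adjusted p 4.15e-07) and had a value of 0.20 under CHX (limma adjusted p 0.716). Of 28 other early auxin-raised genes 4 were measured by name, and all 4 rose with NAA and with CHX alone (medians 2.82 and 1.48), where 13.6% and 25.8% of all probe sets rose. The list was made of genes known to rise with auxin, so their rise with NAA is no separate result. PUCHI, the gene of the transgene, is 1 of the 4. Under CHX, NAA raised LBD29 by 1.23 and LBD16 by 0.92 (limma adjusted p 0.00107 and 0.00482), both LOB-domain factors of lateral root initiation. The homeodomain gene HAT2 and PUCHI had values of 0.29 and 0.04 there that did not pass. With DEX also present, NAA under CHX raised 1 of these 4 genes and 3 did not pass (median 0.42), where 0.290% of all probe sets rose.

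The genes with the most similar course over the 8 group means were sought among 2382 named genes whose group means spanned at least 2 on the log2 scale. All points share the same 16 arrays, and r is a description. The choice depended on the measure: with Spearman's rho in place of Pearson's r, 0, 1 and 0 of the 5 genes named for GH3.1, GH3.3 and WES1 were shared. For GH3.1 the 5 were AT1G59740 (r = 0.994), AT4G35210 (0.992), AT1G60010 (0.992), IAA30 (0.989) and AT5G62280 (0.988). For GH3.3 they were AT5G04980 (0.993), AT1G60010 (0.990), AT4G35210 (0.989), AT3G54000 (0.988) and AT3G19200 (0.985). GH3.1 and GH3.3 had an r of 0.990 with each other. WES1 had an r of 0.724 with GH3.1 and of 0.810 with GH3.3, and its nearest genes were AT3G28420 (0.997), IAA29 (0.995), AT2G03850 (0.987), LBD29 (0.987) and AT5G65320 (0.985). No gene stood on both the list of WES1 and that of GH3.1 or GH3.3, while the latter pair shared AT1G60010 and AT4G35210.

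The genes near GH3.1 and GH3.3 had changes of 1.58 to 3.52 with CHX and of 2.23 to 4.13 with NAA. AT1G60010 changed by 4.13 with NAA and 3.25 with CHX, and IAA30, an Aux/IAA repressor, by 4.05 and 3.52. Those near WES1 had changes of 0.64 to 1.87 with CHX and of 2.86 to 5.999 with NAA. IAA29, another Aux/IAA repressor, changed by 5.999 with NAA, 1.53 with CHX and -3.53 with CHX in roots with NAA, and LBD29 by 5.86, 1.87 and -2.77.

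**Figure D5:**
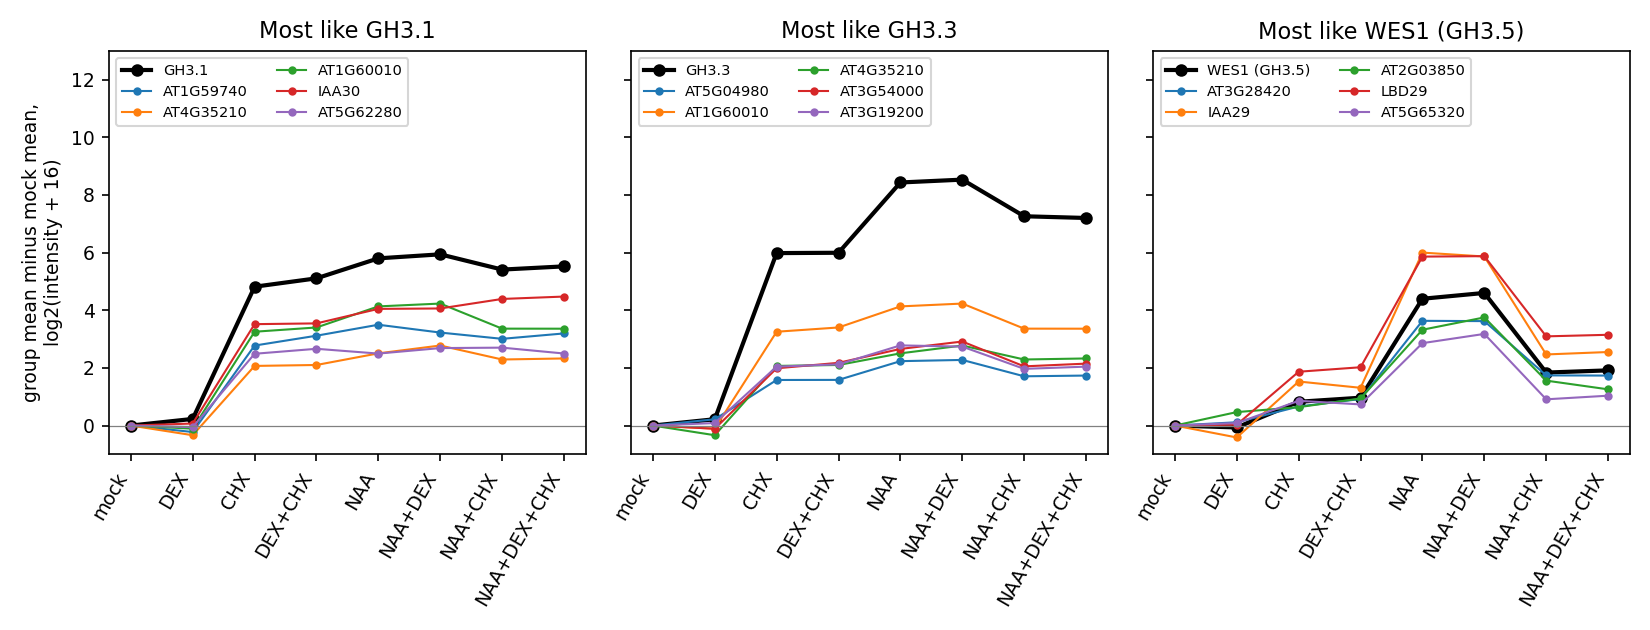
Group means minus the mock mean, on the log2(intensity + 16) scale, for GH3.1, GH3.3 and WES1 (black) and the 5 named genes most like each over the 8 groups (colours). With CHX alone the curves near GH3.1 and GH3.3 rose by 1.58 to 3.52 and those near WES1 by 0.64 to 1.87. With CHX in roots with NAA the changes were -0.77 to 0.34 near GH3.1, -0.81 to -0.21 near GH3.3 and -3.53 to -1.76 near WES1. The genes were chosen for their likeness to each member.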

How the data were processed

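Roots of 1 Arabidopsis line were measured on 16 Affymetrix 3' arrays, 1 per RNA sample, in 8 groups of 2 per the labels. The authors deposited a linear intensity per probe set, and per the submitters' processing notes used Affymetrix Expression Console 1.3, with no signal algorithm named. Leaving out the lowest and highest 2% of values, each array had a mean of 500. The table has no detection calls.

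Of 22810 probe sets 64 controls were left out. Gene names are those of the platform annotation, updated through the gene ID for 13436 of the 13513 probe sets with 1 gene, from the TAIR10.1 gene table. For 503 the list gives several genes and for 8730 none. For a gene with several probe sets the one with the highest mean was used.

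Values were taken as log2(intensity + 16), which understates changes of low genes. In limma 3.58.1 (R 4.3.3) all 16 arrays entered 1 model with the 8 group means (eBayes with trend, 8 residual and 7.94 prior degrees of freedom). The fit was tried on simulated data in which some probe sets changed in the NAA group only. There only the comparison of NAA alone was checked, and no interaction or DEX comparison. Tests are 2-sided, and p was adjusted by Benjamini-Hochberg over all 22746 probe sets within each of 21 comparisons, with 0.05 as the threshold. Each change is a log2 difference with its SE from the model, and the 95% intervals are unadjusted. Their fold is that of the same scale, and ratios and percentages of levels are of mean intensity. SDs are between 2 arrays, whose number limits the precision. Ranks count from the highest signed change, and for the interaction from the lowest.

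Equal replicate numbers were not used as pairs: deviations of equally numbered arrays correlated by -0.05 to 0.06 over 28 pairs of groups. Alternatives tried were constants of 1 and 64, quantile normalization, a filter that kept the 60% of probe sets brightest on average (13648), a replicate block and leaving out each array. Members and lists were chosen with earlier results of these data known. Named are the 3 genes, PUCHI, for each of the 3 the 5 named genes with the highest Pearson's r, and up to 4 genes per list, with further ones named after their values were seen.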

Additional observations from a re-analysis of the deposited data

Results flagged for a closer look

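The NAA response of all 3 genes differed between roots without and with CHX by the test of the difference itself, in both DEX states. For GH3.3 the difference was -7.15 without DEX, -7.10 with DEX and -7.13 on average on the log2(intensity + 16) scale. For GH3.1 it was -5.21, -5.29 and -5.25, and for WES1 it was -3.39, -3.72 and -3.55. The CHX arrays without NAA, which set the start of the response under CHX, were at an intensity of 3923 to 4212 for GH3.3 and of 1384 to 1721 for GH3.1. For WES1 they were at 959.5 to 1302. By its definition the difference is also the CHX change in roots with NAA minus the CHX change in roots without NAA. Without DEX these changes were -1.17 and 5.98 for GH3.3, -0.39 and 4.82 for GH3.1, and -2.56 and 0.83 for WES1. Why CHX raised the start was not tested.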

How the results depend on the processing

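Of 315 values of the 3 genes under quantile normalization, the filter on the mean, other constants and the replicate block, 313 kept their direction and side of the threshold. The exceptions were not called: the DEX by CHX value of GH3.1 was -0.023 with a constant of 1, and the value for all 3 factors of GH3.3 was -0.043 with a constant of 64. With 1 array left out, 976 values did so, 7 lost their call, all of GH3.1, and 25 uncalled values turned sign. GH3.1 then ranged over 0.56 to 0.63 for NAA with CHX, -0.52 to -0.26 for CHX with NAA and -0.51 to -0.32 for CHX with NAA and DEX. The lone array of a group was then assumed to vary like the others, and the cause was not tested. Those that turned sign ranged over -0.19 to 0.059 (WES1, DEX alone), -0.040 to 0.063 (GH3.3) and -0.010 to 0.29 (WES1) for DEX with CHX, -0.24 to 0.12 (GH3.3) and -0.017 to 0.17 (WES1) for DEX with both, -0.065 to 0.099 (GH3.1) and -0.035 to 0.12 (WES1) for DEX by CHX, and -0.25 to 0.075 (GH3.1) and -0.14 to 0.24 (GH3.3) for all 3 factors.

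Counts of calls over all probe sets moved too. For DEX alone, 5 calls became 8 with quantile normalization, 8 with the filter, 17 with a constant of 1 and 1 with 64, and for DEX with NAA 8 became 18, 13, 40 and 2. For DEX with CHX 3 became 9 with a constant of 1 and 7 with 64, and for DEX with both 7 became 4 with quantile normalization and 12 with a constant of 1. For DEX by NAA 0 became 3 with a constant of 1, for DEX by CHX 1 became 5 with the filter and 5 with a constant of 1, and for all 3 factors 3 became 7 and, with 64, 0. With 1 array left out the counts were 107 to 295 for NAA with CHX, 95 to 306 for NAA with DEX and CHX, 2 to 9 for DEX alone, 0 to 19 with NAA, 3 to 8 with CHX, 2 to 11 with both, 10 to 22 on average, 0 to 6 for DEX by CHX and 0 to 1 for all 3 factors. With the replicate block the counts were 4 for DEX with NAA, 4 for DEX with both and 0 for all 3 factors, and no call of the 3 genes changed. With Spearman's rho in place of Pearson's r, 0, 1 and 0 of the 5 genes most like GH3.1, GH3.3 and WES1 were shared. The low intensity of GH3.1 and GH3.3 in untreated roots limits the precision of their folds.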
